A study of Mus musculus with 10 samples.

Results

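The cells described here are homeostatic-like microglia: cells that held at least 1 transcript (unique molecular identifier, UMI) of both P2ry12 and Cx3cr1 and none of Gpnmb, Apoc1, Mrc1 or Cd3e. Of 1168 cells in the deposited table, 133 met this rule (11.4%), 37 of 959 cells from optic nerve and 96 of 209 cells from retina. Members were thus chosen by their measured values of these 6 genes, whose levels are given only as a description. All mice were wildtype, of strain 129S1/SvlmJ, of both sexes and 10 weeks old. The injured groups had an optic nerve crush at 8 weeks and were collected 2 weeks later; the uninjured groups of the same age had none. Cells of both tissues carry the label microglia/macrophage. The deposited table also holds the authors' class of each cell, in which 72 cells are Macrophage.Rbpms+. Of the members 11 were in that class (8.27%, against 5.89% of the other cells). These were 3 and 0 in the injured retina pools, 5 and 2 in uninjured retina, and 1 in injured optic nerve 3. The 4 groups were injured optic nerve (libraries 1 and 3), uninjured optic nerve (2 and 4), injured retina (1 pool of samples 1 and 2, and 1 pool of samples 3 and 4) and uninjured retina (5 and 6). The labels list 10 samples; the table tells 8 libraries apart, and these are the replicates. Nothing in the labels says how many animals stand behind a library, so p-values measure the spread between libraries, which may be technical.

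Microglia are the resident macrophages of the central nervous system, retina and optic nerve included. At rest they express a set of genes that includes the ADP receptor P2ry12, the fractalkine receptor Cx3cr1 and Tmem119, and this set is known to fall when the cells respond to damage. Apoc1 and Gpnmb are typical of lipid-handling, damage-responding microglia, Mrc1 of macrophages at tissue borders and Cd3e of T cells. A crush of the optic nerve cuts the axons of retinal ganglion cells, so the nerve holds the lesion and the retina holds the injured cell bodies.

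The members held 1030304 UMIs in all, with summed totals from 16556 in injured optic nerve 1 to 600251 in the injured retina pool 1 and 2. Levels below are CPM, the UMIs of a gene relative to all UMIs summed over the members of a library. Median depth per member was 1286 and 5023 UMIs in injured optic nerve, 2263.5 and 2222.5 in uninjured optic nerve, 14026 and 7570 in injured retina, and 4272.5 and 4712 in uninjured retina. Uninjured retina stood apart in the table: it had no UMI in any entry after number 27998 of 52181, so gene annotation or merging differed there, and this cannot be told apart from injury within the retina or from tissue among uninjured libraries. Only entries with UMIs in the groups compared, or among those 27998, were tested. Of the cell barcodes, 2 occurred in more than 1 library, and no member carried either. Cells of another type serve as a background: 25 cells, all from injured retina, held 3 or more T and NK cell markers. Median depth was 5703 UMIs in members and 2660 UMIs in these cells. None of the 25 held a P2ry12 or a Cx3cr1 UMI, which allows a share of up to 12% and covers counting error only.

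Among the members the median cell held 4 P2ry12 UMIs and 8 Cx3cr1 UMIs, with maxima of 22 and 53. Members near the threshold were shallow: 29 had a single UMI of one or both genes, and their median depth was 1833 UMIs against 6730 in the other members. Just outside the rule were 55 cells with Cx3cr1 but no P2ry12, and 23 with P2ry12 but no Cx3cr1, all free of the 4 excluded genes. Another 173 cells held both markers and were excluded, 153 of them with Apoc1, 93 with Gpnmb, 22 with Mrc1 and 1 with Cd3e. A single UMI excluded 24 of these, whose median depth was 12126 UMIs. Depth therefore acts on both sides of the rule. P2ry12 stood at 1147.6 and 164.3 CPM in members from injured optic nerve, 1621.7 and 1237 CPM in uninjured optic nerve, 349.9 and 494.5 CPM in injured retina, and 1286 and 1354.7 CPM in uninjured retina. Cx3cr1 stood at 966.4 and 1026.9 CPM in injured optic nerve, 2394 and 1725.3 CPM in uninjured optic nerve, 1001.2 and 1353 CPM in injured retina, and 2380.1 and 3166.9 CPM in uninjured retina. Both genes were lower in every injured library than in every uninjured library of the same tissue, among cells that all had them by definition. Because 1 UMI is a lower CPM in a deeper cell, the rule's cut differed between libraries. These levels describe the chosen cells and are no test of injury.

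The label was checked with 30 other homeostatic microglia genes, and all 30 had a UMI in members. Their summed share of member UMIs was 2.03% and 0.916% in injured optic nerve, 3.06% and 3.1% in uninjured optic nerve, 1.44% and 1.71% in injured retina, and 2.91% in both uninjured retina libraries. Cells outside the rule gave lower shares in 6 of the 7 libraries that had any: 1.31% in injured optic nerve 1, 0.789% and 0.775% in uninjured optic nerve, 1.17% and 1% in injured retina and 1.41% in uninjured retina 5. Uninjured retina 6 had no other cells. The exception was injured optic nerve 3, where the 4 members had 0.916% against 1.31% in the other cells, had no Siglech UMI, and held 82809.6 CPM of Apoe, a lipid carrier raised in damage-responding microglia. Apoe was also high in injured optic nerve 1 (66562 CPM), against 2220.2 and 25651 CPM in uninjured optic nerve, where 1 member of library 4 held 97.6% of that library's Apoe UMIs. Those 4 cells go against the label, and they enter no test of expression. Disease-associated microglia genes took a median of 9.77% and 19.5% of a member's UMIs in injured optic nerve, against 2.4% and 2.85% in uninjured optic nerve. The label is therefore also less clear for the 7 members of injured optic nerve 1. As a description with no test, Tmem119 averaged 2.26 log2 units higher in members than in other cells over 6 libraries and was higher in 6 of 6. In injured optic nerve 1 all 7 Tmem119 UMIs came from 1 of the 7 members. Siglech, a sialic acid receptor of microglia, averaged 2.14 higher, and P2ry13, an ADP receptor, 1.74 higher, both in 6 of 6. Lyz2, the lysozyme of monocytes and macrophages, averaged 2.63 log2 units lower in members, and was higher in 1 of 6 libraries.

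Other cell types left traces in the members, unequally. T and NK cell markers summed to 1 UMI over all members, and cone markers to 0. Markers of oligodendrocytes, the myelin-forming cells, summed to 2416 and 410.8 CPM in injured optic nerve, 9517.9 and 3320.3 CPM in uninjured optic nerve, 56.6 and 48.1 CPM in injured retina, and 86.4 and 70.4 CPM in uninjured retina. One cell held 64.7% of those UMIs in uninjured optic nerve 2. Of the members, 6 of 7 and 1 of 4 in injured optic nerve and 12 of 16 and 10 of 10 in uninjured optic nerve held 3 or more oligodendrocyte, T cell or endothelial markers, against 0 in injured retina and 1 in uninjured retina. Fn1, from the monocyte list, had 343.2 and 453.3 CPM in members from injured retina, against 9.6 and 0 CPM in uninjured retina. Slc1a3, from the astrocyte list, had 164.9 and 261 CPM in injured retina, with UMIs in 32 of 42 and 14 of 18 members, against 9.6 and 17.6 CPM, 1 UMI each, in uninjured retina (log2 fold change 4.02, SE 0.67, adjusted p = 0.00323, edgeR). It was the only gene of that list tested in retina. The part of free RNA, doublets or shared expression in these values was not tested.

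Members made up less of the cells in injured than in uninjured libraries of both tissues. They were 7 of 146 cells in injured optic nerve 1 (4.79%, 95% exact Clopper-Pearson interval 1.95 to 9.63%) and 4 of 682 in injured optic nerve 3 (0.587%, 0.16 to 1.5%). Uninjured optic nerve 2 gave 16 of 103 (15.5%, 9.15 to 24%) and uninjured optic nerve 4 gave 10 of 28 (35.7%, 18.6 to 55.9%). The nerve libraries of the 2 conditions did not overlap. In the injured retina pools members were 42 of 109 cells (38.5%, 29.4 to 48.3%) and 18 of 57 (31.6%, 19.9 to 45.2%). Uninjured retina 5 gave 24 of 31 (77.4%, 58.9 to 90.4%) and uninjured retina 6 gave 12 of 12 (100%, 73.5 to 100%). The retina libraries of the 2 conditions did not overlap either. The injured minus uninjured difference averaged -38.3 percentage points, -22.9 in optic nerve and -53.6 in retina. An exact two-sided permutation test within tissue gave p = 0.0556, the smallest the 36 assignments allow, so this design cannot pass 0.05. Without cells that held 3 or more markers of other lineages, the difference was -8.48 points in optic nerve and -45.75 in retina. That filter left out all 10 members of uninjured optic nerve 4, so the nerve libraries of the 2 conditions then overlapped.

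Optic nerve gave a smaller share of members than retina under both conditions, by -32.4 points after injury and -63.1 points without it. The mean difference was -47.7 points, again at the smallest p the exact two-sided permutation test allows (p = 0.0556). A library's share of members depends on which other cells were captured, and how many: a smaller share does not tell fewer members from more cells of other kinds.

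**Figure D1:**
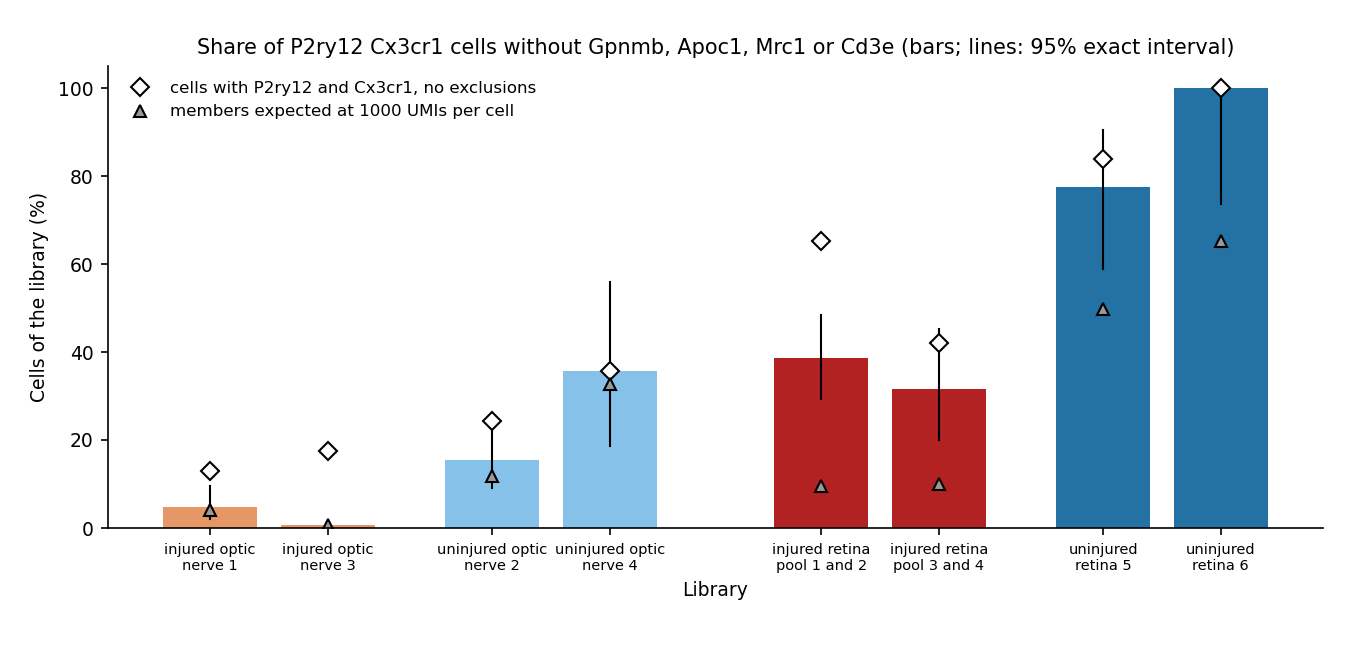
Share of cells (%) that meet the rule in each of the 8 libraries, as bars with the 95% exact interval as a line. Diamonds give the share with P2ry12 and Cx3cr1 before the 4 exclusions and triangles the share expected at 1000 UMIs per cell; on all 3 measures each injured library lies below each uninjured library of its tissue.

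The excluding genes removed most of the P2ry12 and Cx3cr1 cells in injured optic nerve. Before exclusion, cells with both markers were 13% and 17.4% of injured optic nerve, 24.3% and 35.7% of uninjured optic nerve, 65.1% and 42.1% of injured retina, and 83.9% and 100% of uninjured retina. The exclusions took away 63.2% and 96.6% of those in injured optic nerve, 36% and 0% in uninjured optic nerve, 40.9% and 25% in injured retina, and 7.69% and 0% in uninjured retina. In injured optic nerve 3 that was 115 of 119 cells. Because deeper cells lose and gain members, the shares were also computed at an equal depth of 1000 UMIs per cell. Cells under 1000 UMIs were left out, 67 of 146 and 201 of 682 in injured optic nerve, 19 of 103 and 9 of 28 in uninjured optic nerve, none in injured retina and 1 of 31 in uninjured retina 5. The shares then stood at 4.15% and 0.69% in injured optic nerve, 11.8% and 32.6% in uninjured optic nerve, 9.44% and 10% in injured retina, and 49.7% and 65.2% in uninjured retina. The order of conditions within each tissue was kept at equal depth, but the mean tissue difference shrank to -21.3 points.

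Injury in the retina was tested on UMI counts summed over members of each library, with edgeR's quasi-likelihood test and Benjamini-Hochberg adjustment over 1831 genes. In members from injured retina, 14 of 30 homeostatic genes, 12 of 18 immediate early genes and several cytokine genes were lower, and most heat shock and ribosomal protein genes and some MHC class II genes were higher. Of the genes tested, 468 passed an adjusted p of 0.05 (25.6%), 238 higher (13%) and 230 lower (12.6%). The median log2 fold change over all genes tested was 0.01. The gene lists below are read against these shares.

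Homeostatic microglia genes were lower or did not pass the test: 14 of the 30 fell, none rose, and the list median was -1.04 log2 units. Leaving out uninjured retina 5 leaves 8 that fell. Median depth per member was 14026 and 7570 UMIs in injured retina, against 4272.5 and 4712 UMIs in uninjured retina. The rule's cut of 1 UMI therefore stood at a lower CPM in injured retina. Its part in the falls of this list was not tested. Olfml3, a secreted glycoprotein (chr3:103722222-103738001, minus strand, mm10), had 60 and 48.1 CPM in members from injured retina, against 969.3 and 1073.2 CPM in uninjured retina. The groups were far apart, and the log2 fold change was -4.10 with a standard error (SE) of 0.29 (adjusted p = 0.000141, edgeR). Gpr34, a lysophosphatidylserine receptor (chrX:13632089-13640858, plus strand), had 156.6 and 219.8 CPM in injured retina, against 1439.6 and 1337.1 CPM in uninjured retina. It fell by 2.88 log2 units (SE 0.27, adjusted p = 0.000225, edgeR), again with no overlap. Members from optic nerve lay between for Olfml3, at 302 and 82.1 CPM after injury against 424.7 and 390.6 CPM without. For Gpr34 they had 664.4 and 164.3 CPM after injury against 656.4 and 683.6 CPM without, so nerve 3 alone was at the level of injured retina.

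Tmem119, a transmembrane protein used as a microglia marker, had 211.6 and 384.6 CPM in members from injured retina, against 902.1 and 774.1 CPM in uninjured retina. It fell by 1.52 log2 units (SE 0.32, adjusted p = 0.00972, edgeR). Cd81, a tetraspanin, had 1426.1 and 1490.4 CPM in injured retina, against 3752.4 and 3835.5 CPM in uninjured retina, and fell by 1.32 log2 units (SE 0.20, adjusted p = 0.00191, edgeR). Bin1, a membrane-shaping protein, had 119.9 and 185.4 CPM in injured retina, against 691 and 633.4 CPM in uninjured retina, and fell by 2.14 log2 units (SE 0.31, adjusted p = 0.00174, edgeR). The groups did not overlap for any of the 3. P2ry13, Selplg, Crybb1, Ltc4s, Rhob and Slco2b1 also fell, with log2 fold changes between -2.10 and -1.25.

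Csf1r, the receptor for the survival factors of microglia, had 1666 and 1517.9 CPM in members from injured retina, against 1391.6 and 1266.8 CPM in uninjured retina (log2 fold change 0.32, SE 0.21, adjusted p = 0.307, edgeR). Siglech (0.00), Itgb5 (0.09), Rgs10 (0.31) and Mef2a (0.43) likewise had log2 fold changes near or above 0 that did not pass the test. Sall1, a transcription factor of microglia, had a log2 fold change of -1.55 and did not pass (adjusted p = 0.0689, edgeR). The list thus held both genes with large falls and genes with values near 0.

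Fcrls and Slc2a5 need care. Fcrls, an Fc receptor-like gene of microglia, had 0 UMIs in members from injured retina against 52 in uninjured retina, at least 80.3-fold lower when the injured group is set at 3 UMIs. Slc2a5, a fructose transporter, had 1 UMI in injured retina against 19 in uninjured retina. Its level was 88-fold higher in uninjured retina, with a counting interval of 14 to 3656.3. Slc2a5 no longer passed without pool 3 and 4 (adjusted p = 0.078, edgeR), and it had 0 UMIs in optic nerve members. The different annotation of uninjured retina cannot be told apart from injury for these genes.

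**Figure D2:**
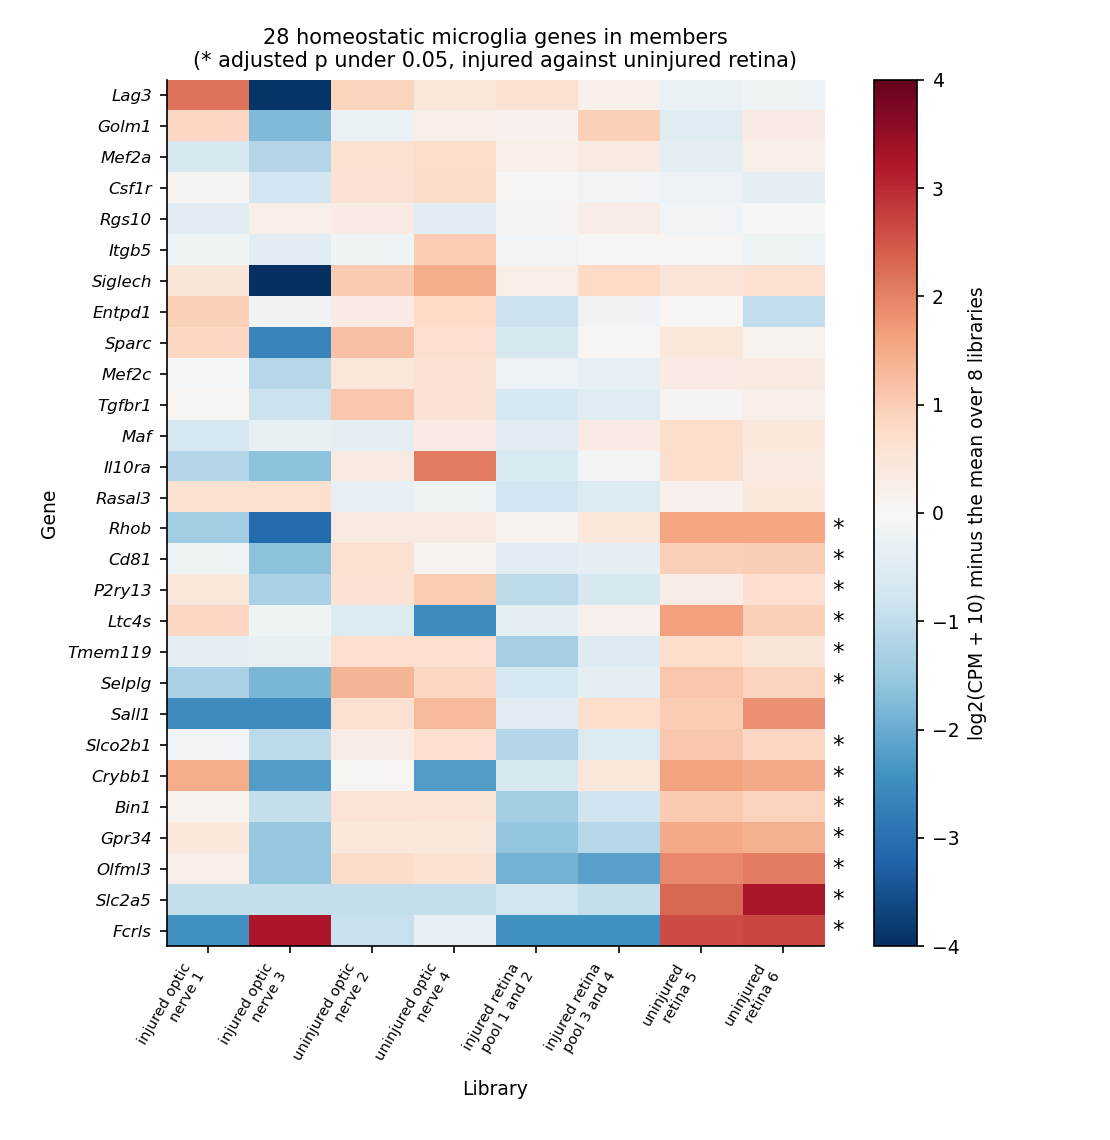
Levels of 28 homeostatic genes in members of the 8 libraries, as log2(CPM + 10) minus the mean over libraries (colours end at 4 and -4), sorted by their retinal injury effect. Stars mark the 13 of these that fell in injured retina; Csf1r and Rgs10 stay near the mean in retina, while Olfml3 and Gpr34 are low in both injured pools.

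Immediate early genes, which are transcribed within minutes of a stimulus, were lower in members from injured retina: 12 of 18 tested fell, none rose, and the median was -1.16 log2 units. The count ran from 10 to 16 when 1 library was left out. Fos, a subunit of the AP-1 transcription factor (chr12:85473890-85477273, plus strand), had 1681 and 1930 CPM in injured retina, against 8618.1 and 8691.4 CPM in uninjured retina. It fell by 2.21 log2 units (SE 0.20, adjusted p = 0.000216, edgeR) with no overlap. Dusp1, a MAP kinase phosphatase, had 429.8 and 625 CPM in injured retina, against 3810 and 3483.6 CPM in uninjured retina (log2 fold change -2.76). Junb, another AP-1 subunit, had 2152.4 and 2733.6 CPM in injured retina, against 12101.8 and 10010.9 CPM in uninjured retina (log2 fold change -2.13). The whole list took a median of 2.27% and 2.59% of a member's UMIs in injured retina, against 8.36% and 7.74% in uninjured retina. Uninjured optic nerve lay between, at 3.44% and 3.09%. The difference was not confined to members. Of summed UMIs, the list took 1.865% and 1.803% in other cells of the injured retina pools, against 3.996% in the 7 other cells of uninjured retina 5. These genes also react to tissue dissociation, and a difference in handling between groups was not tested.

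Cytokine and chemokine genes moved in both directions. Of 15 tested, 6 fell, 1 rose and the median was -1.24 log2 units. Tnf, the tumour necrosis factor gene (chr17:35199381-35202007, minus strand), had 194.9 and 178.6 CPM in members from injured retina, against 1391.6 and 1301.9 CPM in uninjured retina. It fell by 2.78 log2 units (SE 0.25, adjusted p = 0.000216, edgeR). Ccl3, a chemokine, had 2548.9 and 2245.9 CPM in injured retina, against 11765.9 and 6439.4 CPM in uninjured retina, and fell by 1.88 log2 units. Il1a, an interleukin 1 gene, had 311.5 and 645.6 CPM in injured retina, against 1583.5 and 1073.2 CPM in uninjured retina, and fell as well (adjusted p = 0.0166, edgeR). No library of injured retina reached the uninjured levels of these 3. Ccl2, Ccl4 and Ccl9 also fell. Of summed UMIs the list took 1.05% and 1.317% in members of the injured pools, against 3.356% and 2.417% in uninjured retina. Other cells had 0.8408% and 0.8675% in the injured pools, against 2.801% in uninjured retina 5. The balance of this list depends on single libraries: it was 5 lower and 4 higher, with a median of -0.03, without uninjured retina 5, then 9 lower and 4 higher without uninjured retina 6, and 8 lower and 6 higher without the injured pool 3 and 4.

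Cxcl13, a chemokine that attracts B cells (chr5:95956951-95961068, plus strand), rose. It had 922.9 and 3289.9 CPM in members from injured retina, with UMIs in 30 of 42 and 16 of 18 members, and 0 UMIs in uninjured retina. The 1033 UMIs make it at least 74.4-fold higher than a group set at 3 UMIs. In optic nerve it had 3926.1 and 0 CPM after injury, against 251 and 3027.3 CPM without injury, so injured and uninjured nerve overlapped. Members were not alone in this: other cells of the injured retina pools had 1143 and 1500.4 CPM.

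Heat shock genes, which encode chaperones that refold damaged proteins, were higher in members from injured retina. Of 12 tested, 10 rose, none fell and the median was 2.34 log2 units. The count stayed at 10 or 11 whichever library was left out. Hsp90aa1, the inducible cytosolic HSP90 (chr12:110690605-110702728, minus strand), had 6220.7 and 6957.5 CPM in injured retina, against 892.5 and 1354.7 CPM in uninjured retina. It rose by 2.63 log2 units (SE 0.24, adjusted p = 0.000216, edgeR). Hspa1a, an inducible HSP70, had 8179.9 and 7129.2 CPM in injured retina, against 1967.4 and 1073.2 CPM in uninjured retina (log2 fold change 2.36, SE 0.29). Bag3, a partner of HSP70, had 834.7 and 1174.5 CPM in injured retina, against 115.2 and 52.8 CPM in uninjured retina (log2 fold change 3.49, SE 0.39). Injured and uninjured retina did not overlap for any of the 3. Hspa1b, Hsph1, Hspe1, Hspd1, Hsp90ab1, Dnaja1 and Hspa8 rose by 1.08 to 3.03 log2 units. Dnajb1 (0.52) and Hspb1 (-0.82) did not pass.

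Heat shock genes were also high in the other cells of the injured retina. The list took 3.86% and 3.48% of member UMIs in the injured pools and 2.88% and 2.77% of the UMIs of other cells there. In uninjured retina it took 1.08% and 0.871% of member UMIs, and 0.386% in the 7 other cells of replicate 5. Among optic nerve members it took 0.368% and 0.341% after injury and 0.384% and 0.902% without. Hspa1a, Hspa1b, Hsph1 and Bag3 had 0 UMIs in the 11 members from injured optic nerve. High heat shock levels were thus found in injured retina libraries, in and out of the members. Their relation to handling was not tested.

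Promoters of 4 of these genes are shown because the genes moved together and share a short motif, GAANNTTC, the core of the element bound by heat shock factors. The windows run from 250 bases before to 50 after the transcription start (RefSeq, GRCm38.p6), 5′ to 3′ on the gene's strand, with the first match in capitals. The motif equals its own reverse complement, so both strands are searched at once. Hspa1a lies at chr17:34972107-34972406 (minus strand), Hspa1b at chr17:34959189-34959488 (minus strand), Bag3 at chr7:128523333-128523632 (plus strand) and Hsph1 at chr5:149636287-149636586 (minus strand).
Hspa1a: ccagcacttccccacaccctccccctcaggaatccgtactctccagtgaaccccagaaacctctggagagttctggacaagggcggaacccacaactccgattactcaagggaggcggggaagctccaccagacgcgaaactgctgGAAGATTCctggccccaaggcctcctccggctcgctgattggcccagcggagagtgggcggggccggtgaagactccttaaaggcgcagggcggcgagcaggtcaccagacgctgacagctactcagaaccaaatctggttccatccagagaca
Hspa1b: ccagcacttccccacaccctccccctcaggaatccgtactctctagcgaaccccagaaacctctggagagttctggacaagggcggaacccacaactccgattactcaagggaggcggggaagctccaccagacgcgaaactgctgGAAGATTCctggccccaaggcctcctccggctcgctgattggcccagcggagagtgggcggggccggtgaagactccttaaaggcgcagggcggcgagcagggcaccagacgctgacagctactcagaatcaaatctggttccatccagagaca
Bag3: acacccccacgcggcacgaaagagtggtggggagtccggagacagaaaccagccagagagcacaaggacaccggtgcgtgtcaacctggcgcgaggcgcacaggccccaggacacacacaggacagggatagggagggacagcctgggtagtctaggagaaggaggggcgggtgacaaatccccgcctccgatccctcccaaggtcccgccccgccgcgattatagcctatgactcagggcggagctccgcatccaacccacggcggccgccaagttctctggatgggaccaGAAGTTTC
Hsph1: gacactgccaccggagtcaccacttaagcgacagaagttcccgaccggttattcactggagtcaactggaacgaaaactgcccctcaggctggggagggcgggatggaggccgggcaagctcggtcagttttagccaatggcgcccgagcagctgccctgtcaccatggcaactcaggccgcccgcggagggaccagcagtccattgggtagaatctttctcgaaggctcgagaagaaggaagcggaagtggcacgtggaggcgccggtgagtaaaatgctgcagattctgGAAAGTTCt
The match lies 104 bases before the start in Hspa1a and Hspa1b, and 42 and 41 bases after it in Bag3 and Hsph1. Of the 12 heat shock genes, 9 had a promoter window and 8 of these held the motif in at least 1 window. Hspb1, which did not pass the retinal test, was among the 8, and Hsp90aa1, which rose, was not. Genes without a window were not searched, and whether Hsp90aa1 had a window is not given here. Its promoter can therefore not be said to lack the motif. Among all 32851 windows, 2582 held it (7.86%), a count by window and not by gene. A match is a description of the letters and not evidence of binding. The Hspa1a and Hspa1b windows are identical at 296 of 300 positions, and the split of reads between these near-identical genes is uncertain.

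Ribosomal protein genes were higher in members from injured retina: 28 of 30 tested rose, none fell and the median was 1.24 log2 units. Without uninjured retina 6, 18 rose. Rpl17 had 3436.9 and 3173.1 CPM in injured retina, against 335.9 and 351.9 CPM in uninjured retina (log2 fold change 3.32, SE 0.24, adjusted p = 0.000141, edgeR). Rps15 had 2465.6 and 1998.7 CPM in injured retina, against 172.7 and 140.8 CPM in uninjured retina (log2 fold change 3.86). Both encode subunits of the ribosome, and neither showed overlap between the groups. In optic nerve members Rps15 had 543.6 and 328.6 CPM after injury, against 752.9 and 488.3 CPM without. The list took a median of 10% and 8.77% of a member's UMIs in injured retina, against 3.86% and 3.09% in uninjured retina. In optic nerve the median was 8.16% and 5.44% after injury, against 3.67% and 1.93% without. Of the summed member UMIs the list took 8.37% and 5.2% after injury, against 6.14% and 4.32% without, so the nerve groups overlapped on that measure. In retina the difference was not confined to members. Other cells had 10.79% and 11.32% of summed UMIs in the injured pools, against 6.582% in the 7 other cells of uninjured retina 5. Many ribosomal protein genes have pseudogene copies, and Rpl17 overlaps 3 other annotated genes, and the differing annotation of uninjured retina cannot be told apart from injury for these genes.

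**Figure D3:**
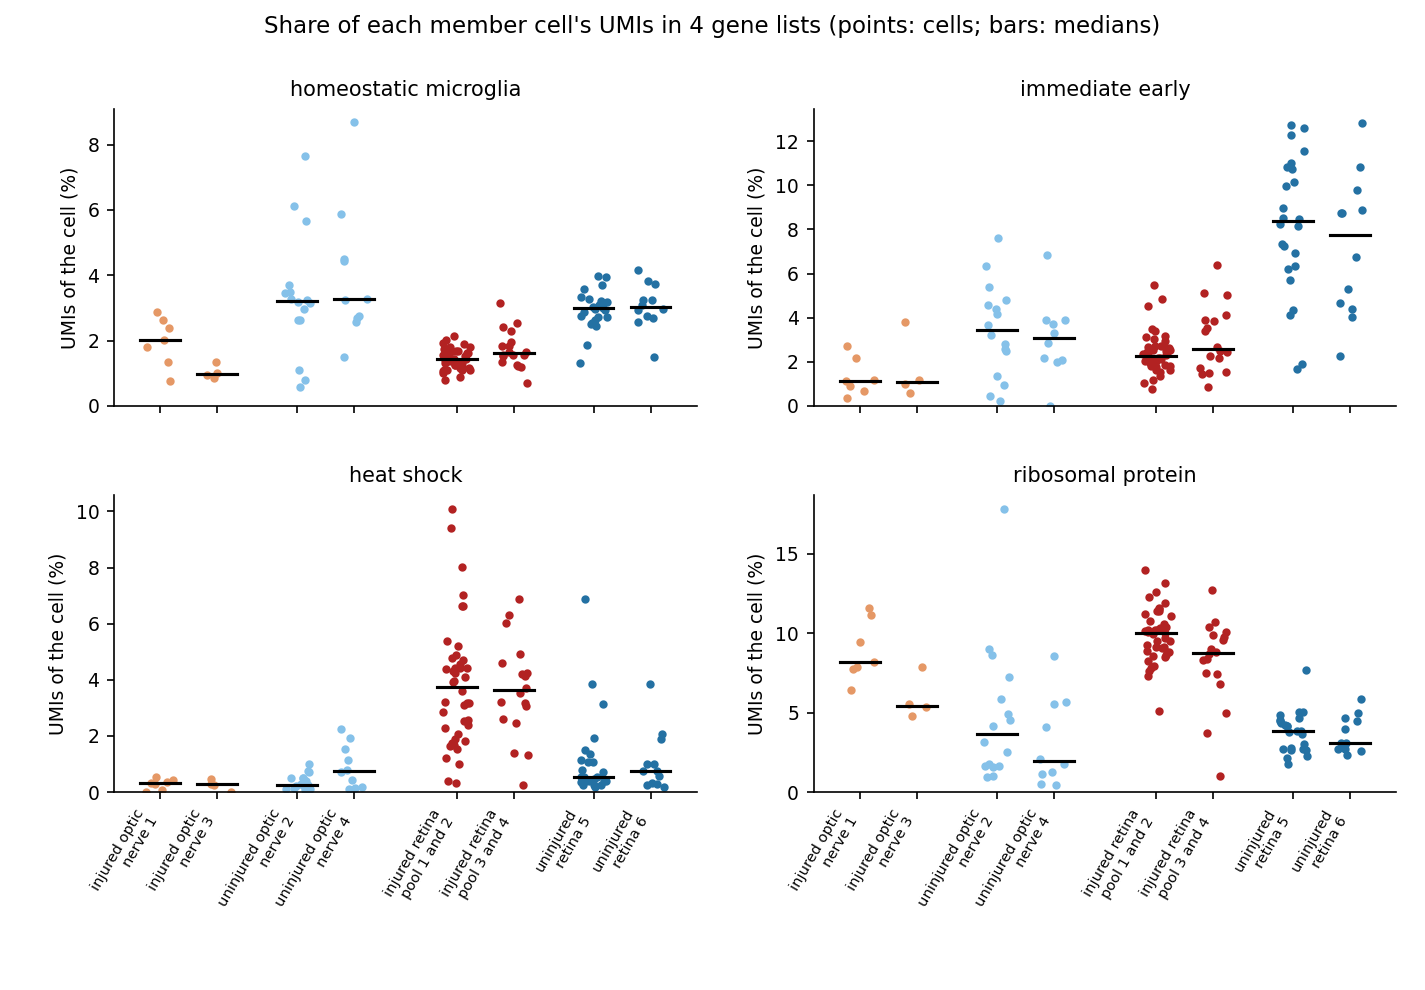
Share of each member's UMIs (%) in 4 gene lists, with points for cells, bars for medians and 1 column per library. In retina the injured pools are low for homeostatic and immediate early genes and high for heat shock and ribosomal protein genes; in optic nerve members heat shock medians stay under 1%.

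MHC class II genes, which present antigen, had 3 of 6 tested higher in injured retina, namely H2-Aa, H2-Eb1 and Cd74, with a list median of 2.44 log2 units. The median was 5.75 without uninjured retina 5 and 1.26 without uninjured retina 6. DESeq2 called none of the list. Cd74, the invariant chain, was found in 40 of 42 and 17 of 18 members of the injured pools, against 7 of 24 and 5 of 12 members in uninjured retina. A single cell held 90.8% of the Cd74 UMIs of uninjured retina 5.

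Genes of the disease-associated microglia programme split, with 5 of 19 higher, 5 lower and a median of 0.18 log2 units. Without uninjured retina 5, 6 rose and 3 fell. Apoe rose by 1.42 log2 units (SE 0.26, adjusted p = 0.00461, edgeR), and Spp1 (osteopontin), Fabp5 (a fatty acid carrier), Cd63 and B2m rose too. Spp1 had 214.9 and 1442.3 CPM in injured retina, against 76.8 and 0 CPM in uninjured retina. Trem2, the lipid-sensing receptor of this programme, fell by 1.18 log2 units, and Cd9 fell by 1.91. Ctsd, Ctsz and Timp2 also fell. The programme's 2 excluded genes, Apoc1 and Gpnmb, are 0 in every member by the rule.

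Complement and Fc receptor genes had 4 of 12 lower (C1qc, C5ar1, Itgam and Fcer1g), none higher and a median of -0.59. The count was 1 without uninjured retina 5 and 2 without either injured pool, and DESeq2 called 1. Among lysosomal genes 2 of 16 rose and 4 fell. Gdpd3, a phospholipase of the glycerophosphodiester family, was among the 10 leading genes that rose: 546.4 and 439.6 CPM in injured retina, against 9.6 and 17.6 CPM in uninjured retina. That is 392 UMIs against 2, a ratio of 42.3 with a counting interval of 11.6 to 350.7. In optic nerve members Gdpd3 had 664.4 and 287.5 CPM after injury, against 251 and 293 CPM without. The differing annotation of uninjured retina cannot be told apart from injury for this gene.

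**Figure D4:**
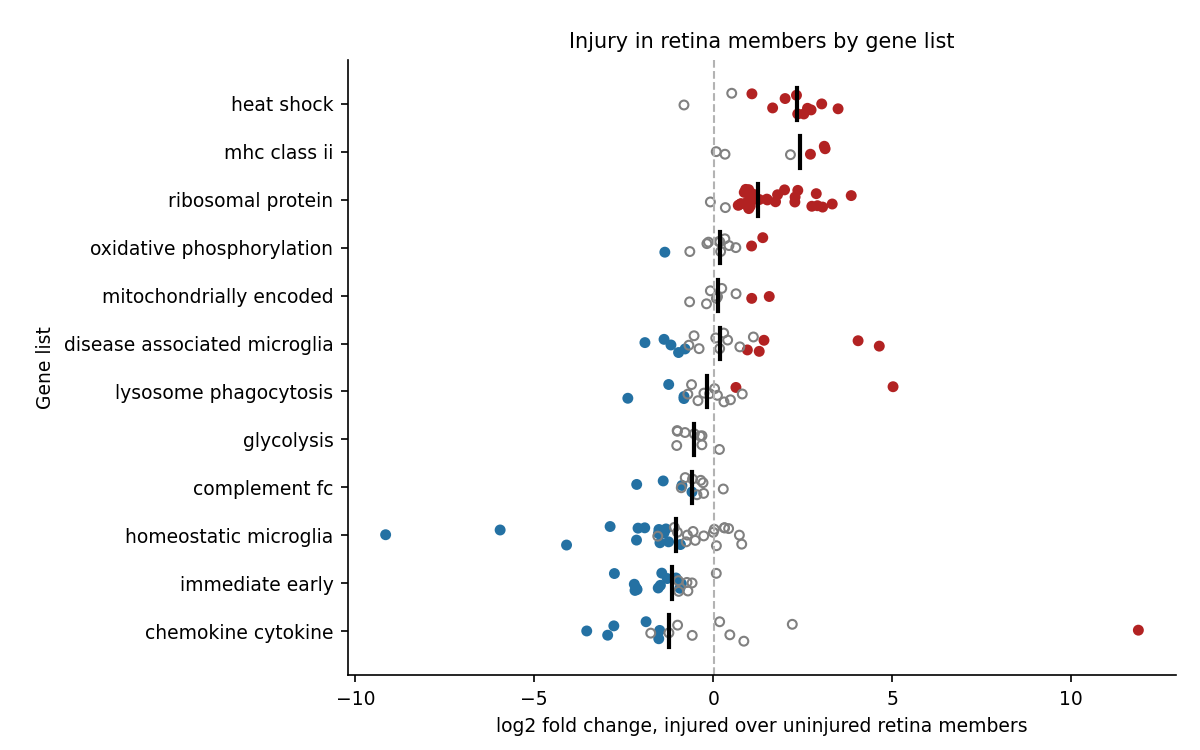
log2 fold change of each gene tested, injured over uninjured retina members, by gene list; filled points passed the test (red higher, blue lower), the bar is the list median and the dashed line the median of all genes. Heat shock and ribosomal protein medians lie at 2.34 and 1.24, homeostatic and immediate early medians at -1.04 and -1.16.

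Between tissues without injury, members from optic nerve held more Mbp and Slc1a3 and less of several immediate early genes, Ubb and Ftl1 than members from retina. Here and below, limma was run on the mean over members of ln(1 + 10000 × UMI share), and differences are in natural log units. Of 5025 genes, 206 passed (4.1%), 34 higher (0.677%) and 172 lower (3.42%) in optic nerve. edgeR on the summed UMIs called 71, 29 higher and 42 lower, and 59 genes passed both. Far fewer of the 206 genes passed limma without uninjured retina 5 or 6. Fewer also passed without either injured retina pool, which is not compared here. The count thus depends on more than the libraries compared. All 202 and 198 of these genes tested without uninjured retina 5 and 6 kept their direction.

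Slc1a3, a glutamate transporter (chr15:8634124-8710764, minus strand), had 1911.3 and 1855.5 CPM in members from uninjured optic nerve, against 9.6 and 17.6 CPM in uninjured retina (difference 2.58, SE 0.22, adjusted p = 4.49e-07, limma). Mbp, myelin basic protein, had 2587 and 1757.8 CPM in uninjured optic nerve, against 0 and 17.6 CPM in uninjured retina (difference 2.93, SE 0.23, adjusted p = 1.00e-07, limma). Neither gene overlapped between tissues. Mbp is an oligodendrocyte gene, and oligodendrocyte markers were high in the same nerve members. Slc1a3 is best known from astrocytes, as the glutamate transporter GLAST. Dennd4a, a Rab exchange factor, had 733.6 and 1920.6 CPM in uninjured optic nerve, against 48 and 70.4 CPM in uninjured retina, and rose by 1.66. Slc29a3, Col27a1, Arid5b, Tnrc6b and Csmd3 were higher in both tools.

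Ubb, a ubiquitin gene (chr11:62551171-62553213, plus strand), had 1293.5 and 1334.6 CPM in members from uninjured optic nerve, against 7092.2 and 6492.1 CPM in uninjured retina (difference -2.10, SE 0.23, adjusted p = 1.49e-05, limma). Fos had 3011.8 and 2669.3 CPM in uninjured optic nerve, against 8618.1 and 8691.4 CPM in uninjured retina (difference -1.80). Ftl1, a ferritin light chain gene with many pseudogene copies, had 2297.4 and 1171.9 CPM in uninjured optic nerve, against 8042.3 and 8621 CPM in uninjured retina (difference -2.31). All 3 were lower in each nerve library than in each retina library. Of 20 immediate early genes, 12 fell and 1 (Egr3) rose by limma, while edgeR called 6 lower and 1 higher. Without uninjured retina 5 none of the list fell, and without uninjured retina 6, 1 fell.

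Of 29 homeostatic genes tested between uninjured tissues, 5 fell in optic nerve (Gpr34, Olfml3, Fcrls, Ltc4s and Rhob), none rose, and the median difference was -0.16 against -0.04 over all genes. The count was 1 without uninjured retina 5, 2 without uninjured retina 6 and 0 on log2(CPM + 10), where the median was 0.06. Without uninjured optic nerve 2, 7 fell and 3 rose. Rhob, a small GTPase, had 1428.7 and 1432.3 CPM in uninjured optic nerve, against 3378.2 and 3342.8 CPM in uninjured retina. Tmem119 stood at 888.1 and 878.9 CPM in uninjured optic nerve, against 902.1 and 774.1 CPM in uninjured retina. Of 12 complement and Fc receptor genes, 6 fell by limma (C1qa, C1qb and C1qc among them) while edgeR called 1 and limma none without uninjured retina 5 or 6.

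**Figure D5:**
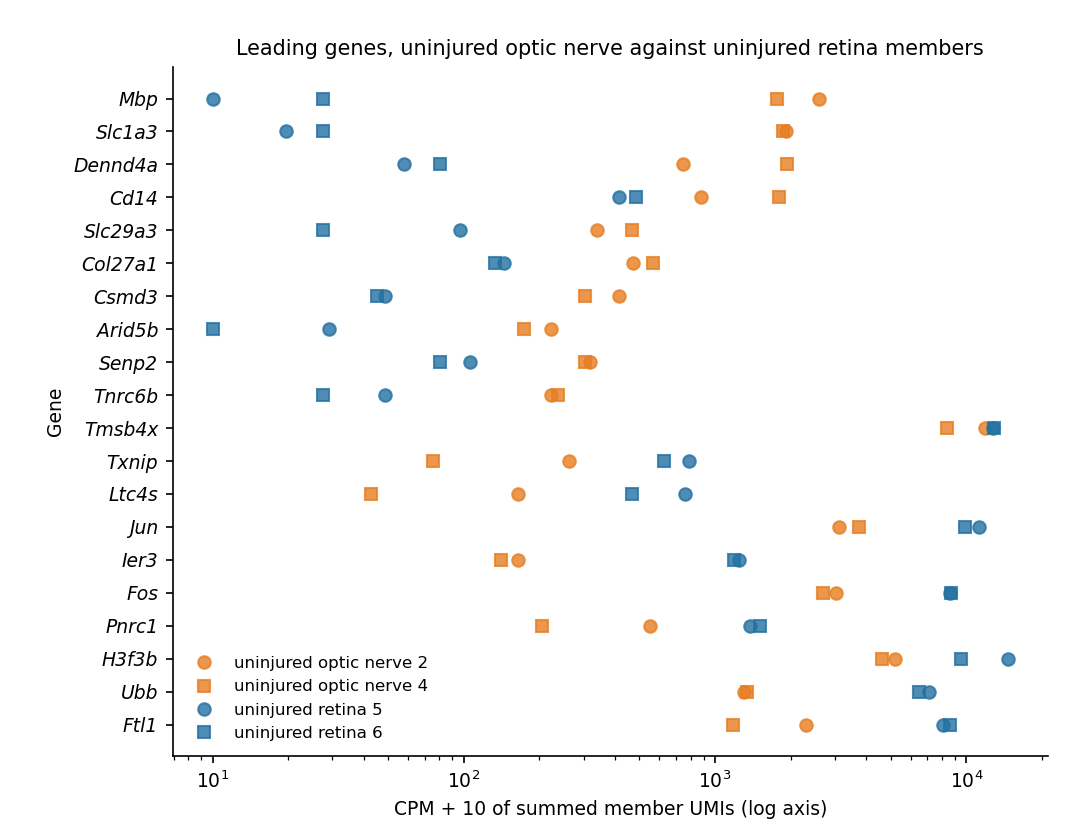
CPM + 10 (log axis) of the 20 leading genes in members of the 2 uninjured optic nerve libraries (orange) and the 2 uninjured retina libraries (blue). Mbp and Slc1a3 lie above 1000 in both nerve libraries and near the floor in retina, while Ubb, Ftl1 and Fos lie lower in nerve. The genes lead by limma, and Cd14, Senp2 and Tmsb4x did not pass edgeR (adjusted p = 0.0505, 0.0658 and 0.356, edgeR).

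Comparisons that use injured optic nerve rest on 1 library of 7 members, taken to vary like the other libraries, so only genes passed by both limma and edgeR are named. In that library, injured optic nerve 1, a single member held 9827 of the 16556 member UMIs. Its CPM values and the counts used by edgeR thus come mostly from 1 cell. Injured against uninjured optic nerve gave 224 of 5025 genes by limma (4.46%), 123 higher (2.45%) and 101 lower (2.01%). On log2(CPM + 10) the split was 45 higher and 354 lower. edgeR called 7 genes, and 5 passed both: Malat1, Zfp36, Jun, Hspa1a and Id2, all lower. The median over all genes was -0.09 natural log units by limma and -0.32 log2 units by edgeR. Zfp36, an RNA-binding regulator of cytokine transcripts, had 302 and 903.7 CPM in members from injured optic nerve, against 3146.9 and 2213.5 CPM in uninjured optic nerve (difference -1.94, SE 0.31, adjusted p = 0.00142, limma). Jun had 241.6 and 2711 CPM in injured optic nerve, against 3089 and 3743.5 CPM in uninjured optic nerve, and the 2711 of nerve 3, which is in no fit, lies close to the uninjured values. Malat1, a nuclear RNA, had 10087 and 10638.7 CPM in injured optic nerve, against 40291.9 and 39681 CPM in uninjured optic nerve. In injured optic nerve 1, 1 of the 7 members held 97.6% of the Malat1 UMIs. Id2, an inhibitor of DNA binding, had 60.4 and 123.2 CPM in injured optic nerve, against 1216.3 and 813.8 CPM in uninjured optic nerve.

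After injury, optic nerve members against retina members gave 343 of 5025 genes by limma (6.83%), 41 higher (0.816%) and 302 lower (6.01%). edgeR called 18, and 16 passed both, 3 higher and 13 lower. The median over all genes was -0.19 natural log units by limma. Median depth per member was 1286 UMIs in injured optic nerve 1, against 14026 and 7570 UMIs in the injured retina pools. The part of depth in the excess of lower genes was not tested. Gpr84, a fatty acid receptor of activated myeloid cells, Hexa, a lysosomal enzyme, and Mbp were higher in the fit, in which optic nerve 1 stands for injured nerve. Gpr84 had 1570.4 and 41.1 CPM in injured optic nerve, against 153.3 and 75.5 CPM in injured retina, so nerve 3, which is in no fit, lay below both pools. Hexa had 845.6 and 451.8 CPM in injured optic nerve, against 118.3 and 89.3 CPM in injured retina. Mbp had 966.4 and 82.1 CPM in injured optic nerve, against 31.6 and 41.2 CPM in injured retina. Among the 13 lower were 7 of the 12 genes of the heat shock list: Hspa1a, Hspa1b, Hsp90aa1, Hsp90ab1, Hspa8, Hsph1 and Bag3. Hspa1a had 0 and 0 CPM in injured optic nerve, against 8179.9 and 7129.2 CPM in injured retina, at least 109-fold lower with the nerve group set at 3 UMIs. The difference of the injury effects between the tissues passed limma for 152 of 5025 genes (3.02%), 45 positive (0.896%) and 107 negative (2.13%), edgeR for 8 and both for 8. On log2(CPM + 10), 27 were positive and 152 negative.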

How the data were processed

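Cells were profiled with 10x Genomics v2 3′ single-cell RNA-seq. Per the submitters' processing notes, bcl2fastq 2.17.1.14, Cell Ranger 1.3, Seurat 4.0.3, harmony and the mm10 build were used, and cells with 200 to 6500 genes were kept. The authors deposited retina values as raw UMI counts. They deposited optic nerve values as natural log values, ln(1 + 10000 × UMI / total), from which whole UMIs were recovered for all 1374534 values within 0.01. Gene names came from GENCODE vM21. No doublet caller was run. The members and gene lists were chosen with earlier results of these data known.

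Member UMIs were summed per library. Retinal injury was tested with edgeR 4.0.16 (TMM, filterByExpr, quasi-likelihood) on 4 libraries. The other comparisons used limma 3.58.1 (trend) on mean ln values of the 7 libraries with at least 5 members, over 5025 genes with a UMI in every group and detected in at least 10% of members. The 6 genes of the rule were left out. A few genes counted in the lists are not reported singly here. Shares were compared by exact permutation. Genes named are the 10 with the smallest adjusted p in each direction, plus leading list members and homeostatic genes. For the 3 comparisons with injured optic nerve, which rest on 7 cells of 1 library, naming was narrowed after seeing the data to genes passing both limma and edgeR, because limma called too many unchanged genes in simulated data. For the uninjured tissues limma also called 19 unchanged genes there, beside 80 of 99 changed genes recovered. Naming was not narrowed for that comparison. Of the gene lists, interferon response, TGF-beta signalling, MHC class I and toll and purinergic sensing each had at most 1 gene past the retinal test. Intervals and floors cover counting error only. Alternatives tried were DESeq2 1.42.0, other filters and scales, stricter members, equal depth and leaving out libraries. R 4.3.3, Python 3.11.15, numpy 2.4.6, scipy 1.17.1, pandas 2.3.3 and matplotlib 3.10.9 were used.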

Additional observations from a re-analysis of the deposited data

Results flagged for a closer look

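For 8 genes the effect of injury differed between the tissues by both limma and edgeR, tested as an interaction; the effect in optic nerve minus that in retina is given in natural log units from limma, with its adjusted p. All are negative and rest on the 7 members of injured optic nerve 1. A single one of these members held 9827 of that library's 16556 member UMIs, so the summed counts used by edgeR come mostly from 1 cell there. Hspa1a had -3.78 (adjusted p = 0.000366) and Hsp90aa1 had -2.01 (adjusted p = 0.0166), both chaperone genes that rose with injury in retina members. Slc1a3, high in uninjured optic nerve members and raised with injury in retina members, had -2.60 (adjusted p = 0.00035), and Malat1 had -2.91 (adjusted p = 0.000242). The ribosomal protein genes Rps15, Rpl23a and Rpl17 had -2.32, -2.31 and -1.84, and Id2 had -1.75, with adjusted p between 0.00368 and 0.0341 (limma). The part of annotation, depth and the single library in these differences was not tested.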

How the results depend on the processing

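Both differences in member share kept their direction under every alternative run; injured minus uninjured ran from -43.9 to -32.7 points with 1 library left out, where the exact permutation p was 0.111 without injured optic nerve 1 or 3, and averaged -27.1 points (exact p = 0.167) without cells that held 3 or more markers of other lineages. Calls for injury in retina members numbered 468; DESeq2 called 220, limma 236, and members thinned to 1000 UMIs gave 152 of 326 genes tested, with 325 to 410 without 1 library. Injury in optic nerve gave 224 calls, against 7 by edgeR, 149 with a 2% filter, 399 (45 higher, 354 lower) on log2(CPM + 10), 100 with all libraries that had a member, and 22 to 651 without 1 library. The interaction gave 152, against 8 by edgeR, 46 with the 2% filter, 179 on log2(CPM + 10), 43 with all libraries, and 0 to 715 without 1 library. Uninjured optic nerve against retina gave 206, against 71 by edgeR, 102 with the 2% filter, 37 on log2(CPM + 10), 43 when thinned, 73 with at least 2 UMIs of each marker, 54 with all libraries, and 6 to 581 without 1 library. Injured optic nerve against retina gave 343, against 18 by edgeR, 180 with the 2% filter, 291 on log2(CPM + 10), 224 with all libraries, and 23 to 970 without 1 library. The cause of these changes was not tested. Over the genes reported singly, 1683 alternative values kept direction and call, 39 gained a call and 349 lost it. Thinning retina members, keeping only entries with a UMI in both retina groups, using all libraries and leaving out T and NK cells were chosen after seeing the data. Thinned, stricter and lineage-filtered members left too few cells for the comparisons with injured optic nerve, and the last also for uninjured tissues. With the lineage filter the injured minus uninjured share in optic nerve shrank to -8.48 points, and the nerve libraries of the 2 conditions overlapped. No paired analysis was possible because the injured retina columns are pools of samples, so replicate numbers do not match between groups. Depth limits low genes most in injured optic nerve, with 16556 and 24345 member UMIs.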
